A study of Hordeum vulgare subsp. vulgare with 8 samples.

Results

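Stirling was compared with Bass, Harrington and Baudin by the alternative 3' splicing (A3S) and alternative 5' splicing (A5S) events listed in its germinating embryos. Seeds of the 4 barley varieties came from the same field trial. All were sterilized with hypochlorite, rinsed and imbibed in distilled water at 21 °C in the dark. Germinating embryos were separated from the endosperm at 24 h and 48 h. Each variety had 1 library per time, so there were 8 libraries without replicates, and spread could be measured only between varieties, where it includes their genetic differences. Each library is a pool of many embryos, and pooled embryos hold several tissues, so fewer cells of a type and less RNA per cell cannot be told apart. An event was defined by its gene model and the start and end of its constitutive, annotated and alternative exon. Of 8325 distinct events, 48 were listed in both Stirling libraries and in none of the other 6, and 155 were listed in all 3 other varieties, at either time, and in neither Stirling library. These 203 events are called Stirling-only events and events missing from Stirling.

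In A3S, the same donor site is joined to a different acceptor site, so the downstream exon starts earlier or later. In A5S, a different donor site is used, so the upstream exon ends earlier or later. When the distance between the sites is a multiple of 3 nucleotides the reading frame can be kept, and otherwise it shifts, which can bring in an early stop codon and expose the transcript to nonsense-mediated decay. In germinating embryos many transcripts made during seed maturation are stored and then replaced, while energy metabolism, protein synthesis and cell wall loosening start up.

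The lists held 2197 events for Stirling at 24 h and 1811 at 48 h, and the other 6 libraries held from 1711 to 2537. An event can be absent from a list because its site was not used or because too few reads crossed the junction, and the lists give no junction reads, so absence is not a measured 0. The depth of an exon in the lists is the mean number of reads over its bases and is not scaled for library size. No genome sequence was used here, and gene roles are given only where the study's supplementary tables describe the gene.

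The 48 Stirling-only events lay in 48 genes and made up 0.577% of the distinct events and 7.08% of the 678 events listed in both Stirling libraries. The same rule gave 47 events for Bass, 32 for Harrington and 52 for Baudin, so the count for Stirling lay within the range of the other varieties. There were 25 A3S and 23 A5S events. A5S thus made up 47.9% of the Stirling-only events (95% Wilson interval 34.5 to 61.7, counting error only), against 27.7% (16.9 to 41.8) for Bass, 31.2% (17.95 to 48.6) for Harrington and 38.5% (26.5 to 52.0) for Baudin. The share was the highest of the 4 varieties, but its interval overlapped each of the others. The intervals count events, which are not replicates of a variety, so neither the rank nor the overlap is a test between varieties. Of the 630 events that Stirling listed at both times and shared with at least 1 other library, 30.5% were A5S.

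**Figure D1:**
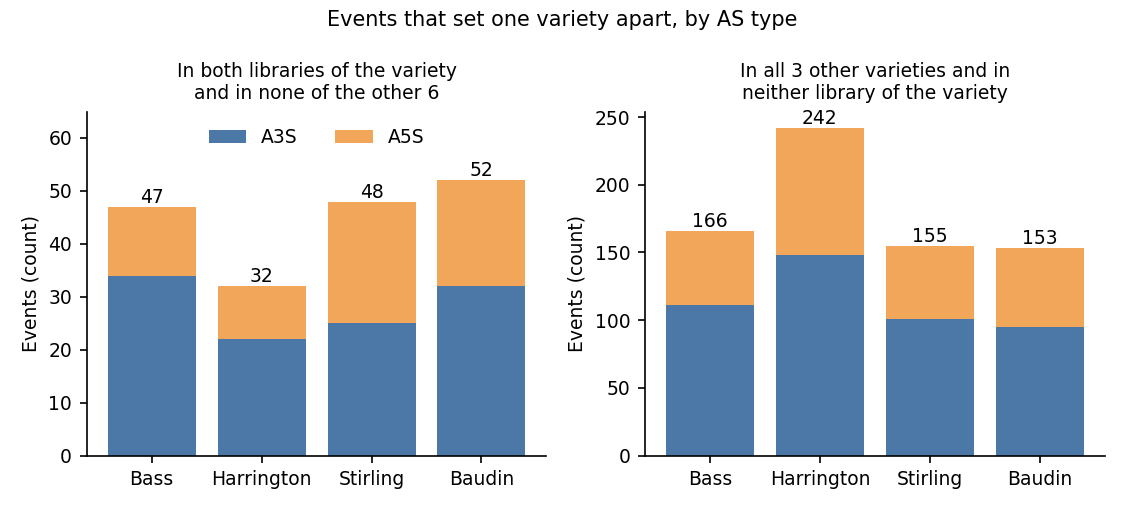
Number of events (y axis, count) that the listing rule gave for each variety, split into A3S (blue) and A5S (orange), with the total above each bar. Stirling had 48 own events, between Harrington with 32 and Baudin with 52, and 155 missing events, close to Baudin with 153 and below Harrington with 242.

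The 2 sites of the Stirling-only A3S events lay a median of 12 nt apart, with the largest distance at 194 nt. In 13 of the 25 the distance was a multiple of 3, and in 4 it was exactly 3 nt. The alternative exon was longer than the annotated one in 8 events. For the 23 A5S events the median distance was 16 nt and the largest 588 nt, 7 distances were multiples of 3, 6 were 4 or 5 nt, and 11 alternative exons were longer. Among all distinct events the median distance was 15 nt for A3S and 23 nt for A5S, and 39.7% and 33.1% were multiples of 3. No test was made of these features, because events are not replicates of a variety.

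The Stirling-only events with the deepest A3S exons had no described gene. In MLOC_37378.1 (LG15, annotated exon 70559533 to 70560212, plus strand, Morex assembly as given in the lists) the acceptor lay 3 nt further in, and the annotated exon had a depth of 1252 at 24 h and 1417 at 48 h. No other library listed any event in this gene. In MLOC_51038.1 the alternative exon was 10 nt longer and the annotated exon had depths of 359.5 and 174. MLOC_56778.1 again had a 3 nt shorter form, at depths of 132 and 206, and MLOC_70713.1 a 30 nt longer one, at 104 and 139. All 4 exons thus had a depth above 100 in both Stirling libraries.

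Next in depth came events in 3 described genes and in MLOC_60795.1. MLOC_70169.1 (LG02, annotated exon 43314108 to 43314503, minus strand), succinate dehydrogenase subunit 4, which helps to anchor complex II in the inner mitochondrial membrane, gained 9 nt, a multiple of 3, at exon depths of 72.5 and 85.1. MLOC_61991.1 (LG01, annotated exon 111738603 to 111738703, plus strand), described as an L-lactate dehydrogenase of the cytochrome type, an enzyme that in yeast passes electrons from lactate to cytochrome c, lost 4 nt at depths of 43.0 and 112. The 4 nt distance is not a multiple of 3. Both genes were listed with other events in 1 or 2 of the other 6 libraries. MLOC_57607.1, a serine protease, gained 14 nt at depths of 59.2 and 18.4, and MLOC_60795.1, which has no description, gained 194 nt at depths of 31.0 and 51.7.

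Among the described A3S genes the shallowest exons were those of MLOC_61702.1, MLOC_70059.2 and MLOC_56464.2. MLOC_61702.1, described as a non-imprinted in Prader-Willi/Angelman syndrome region protein, a family of membrane proteins, lost 14 nt at depths of 16.2 and 19.0. MLOC_70059.2, a putative calmodulin-binding protein, lost 9 nt at depths of 5.38 and 9.29. MLOC_56464.2, phosphatidylinositol-4-phosphate 5-kinase 9, an enzyme that makes a membrane signalling lipid, gained 13 nt at depths of 3.21 and 3.91. With so few reads over the exon, the listing of such an event in both libraries rests on few reads each time.

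The A5S events included the deepest exon of all 48. In MLOC_5950.1 (LG04, annotated exon 45690603 to 45691112, minus strand) the donor lay 4 nt further out, and the annotated exon had depths of 1838 and 2961. The same exon was listed with other events in Bass and Baudin at 48 h only, at 4409 and 4199, deeper than in Stirling. MLOC_77840.1 also had a 4 nt longer form, at depths of 1199 and 785, MLOC_62965.1 a 10 nt longer form at 337 and 366, and MLOC_20614.2 a 91 nt shorter form at 181 and 402.5. None of these 4 distances is a multiple of 3.

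In MLOC_2513.2 (LG03, annotated exon 148914141 to 148914262, plus strand), described as the alpha subunit of the fatty acid oxidation complex, which in bacteria carries steps of beta-oxidation, the alternative exon was 9 nt shorter at depths of 218 and 165. MLOC_4508.2 (LG04, annotated exon 33335294 to 33335517, minus strand), described as SYS1, a protein of Golgi membrane traffic in yeast, lost 108 nt, also a multiple of 3, at depths of 48.4 and 52.6. MLOC_64083.1, cryptochrome 1b, a blue-light receptor, gained 16 nt at depths of 75.7 and 57.5. MLOC_64394.1, an aspartic protease-like protein, and MLOC_76365.1, a putative cullin-1, the scaffold of a class of ubiquitin ligases, each gained 5 nt, at depths of 77.2 and 64.8 for the first and 31.7 and 30.8 for the second. MLOC_34610.2, a beta-galactosidase, an enzyme class that trims galactose from cell wall polysaccharides, lost 74 nt at depths of 22.5 and 30.4. MLOC_14267.2, a putative gamma-soluble NSF attachment protein, which takes part in vesicle fusion, gained 227 nt at depths of 29.6 and 37.1.

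The annotated exon of the Stirling-only events had a median depth of 31.1 over both Stirling libraries, from 3.56 to 2400. It was under 10 in 9 events, from 10 to 100 in 30 and at least 100 in 9. After centring each library on the median of the constitutive exons common to all 8, the exons differed between 48 h and 24 h by a median of 0.10 on the log2 scale, and 40 of 48 (83.3%) differed by less than 1. The 630 events shared with other libraries gave a median of -0.09 and 84.0% within 1. The exons of the 2 sets were therefore about equally stable between the 2 Stirling libraries.

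**Figure D2:**
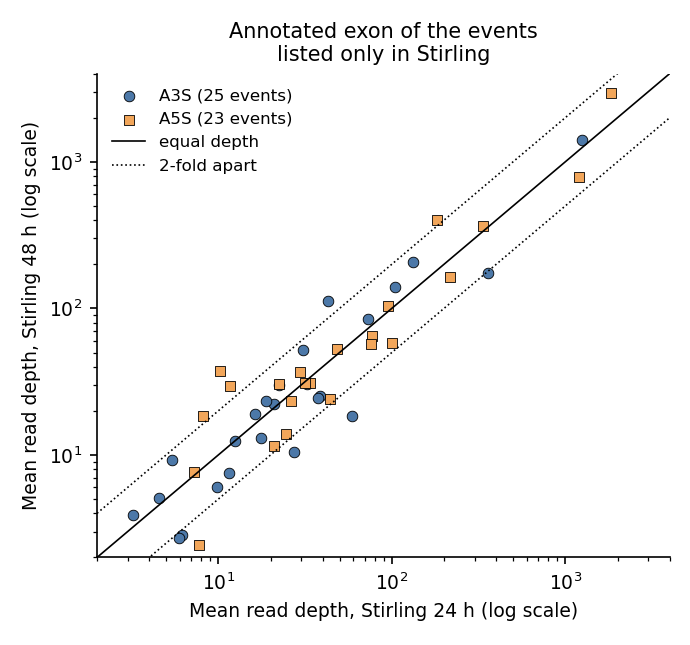
Mean read depth of the annotated exon of the 48 Stirling-only events at 24 h (x axis) and 48 h (y axis), both on a log scale and as deposited, for 25 A3S (circles) and 23 A5S events (squares). Most points lie between the dotted lines, which mark a 2-fold difference, and the deepest exon had depths of 1838 and 2961.

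By linkage group, 23 Stirling-only events were on LG01, 8 on LG10, 7 on LG04 and 5 on LG02. LG01 held 47.9% of them, against 37.0% of all distinct events and 36.8% of the events missing from Stirling. Of the 48 genes 13 (27.1%) had a description, against 904 of 4634 genes (19.5%) in all the lists. The descriptions come from the study's own tables, which were made from these libraries, so the described genes are no independent sample. The word groups held 1 gene under kinases and phosphatases (MLOC_56464; 7.69% of the 13, against 8.96% of the 904) and 2 under metabolic enzymes (MLOC_61991 and MLOC_70169; 15.4% against 9.62%), and none under ribosomal proteins, ubiquitin and proteasome, RNA binding, translation factors, transcription factors, chaperones, late embryogenesis abundant (LEA) proteins or transporters. Over all 904 described genes these groups held between 2 and 87 genes. The groups without a Stirling-only gene each held from 0.221% to 3.54% of the 904, so with 13 genes an empty group says little. The groups count only the words searched, so the putative cullin-1 named above, a scaffold of ubiquitin ligases, was not counted under ubiquitin and proteasome. Of the genes that the study names in its text, 6 were looked up, MLOC_65332, MLOC_22145, MLOC_69727, MLOC_64100, MLOC_69212 and MLOC_63787, and these held no event of either set.

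The 155 events missing from Stirling lay in 153 genes and made up 1.86% of the distinct events. The same rule gave 166 events for Bass, 242 for Harrington and 153 for Baudin. There were 101 A3S events, with a median distance of 15 nt and 42 multiples of 3, and 54 A5S events, with a median of 16.5 nt and 20 multiples of 3. The A5S share was 34.8% (95% Wilson interval 27.8 to 42.6), near the 34.3% of all distinct events. The annotated exon had a median depth of 32.7 in the libraries that listed the event, from 2.31 to 6488, close to the median of 31.1 for the Stirling-only events.

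Most of these events were listed in few libraries. Of the 155, 93 were listed in 3 of the other 6 libraries, 42 in 4, 14 in 5 and 6 in all 6. Of the 879 events listed in all 3 other varieties, 420 were listed in both Stirling libraries, 304 in 1 and 155 (17.6%) in neither. The share in neither library was 37.7% for events listed in 3 of the other 6 libraries, 18.7% for 4, 6.90% for 5 and 2.94% for 6. The other varieties, each put in the place of Stirling, gave 18.7% for Bass, 25.1% for Harrington and 17.4% for Baudin, with the same fall. The share missing from Stirling over all 879 events was thus within the range of the other varieties, and it was lower the more often an event was listed elsewhere. At 4 libraries the Stirling share was below all 3 others (21.1% to 30.5%), and so it was at 5 (10.1% to 17.7%). At 3 and at 6 it was within their range.

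**Figure D3:**
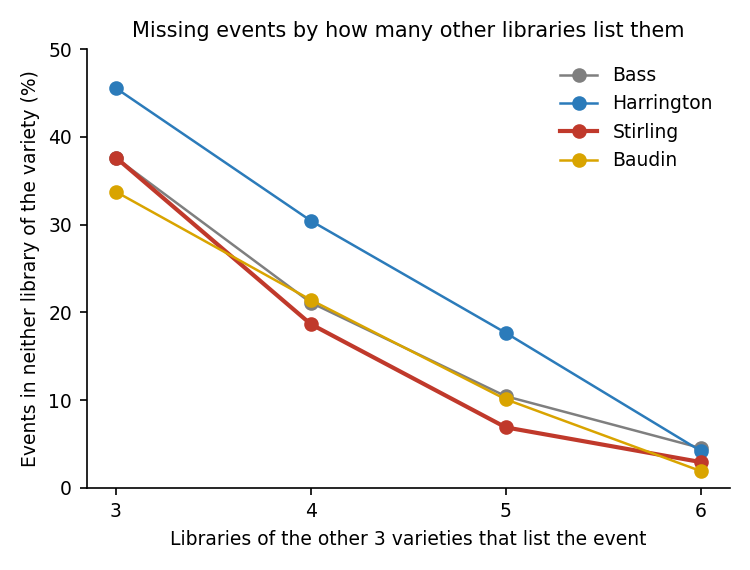
Percent of the events listed in all 3 other varieties that neither library of a variety listed (y axis), by the number of libraries of the other varieties that listed them (x axis), with 1 line per variety. For Stirling the share went from 37.7% at 3 libraries to 2.94% at 6, and Harrington had the highest share at 3, 4 and 5 libraries.

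The 6 events listed in every library but the Stirling ones were the most uniform absences. MLOC_16987.2 (LG10, annotated exon 126224681 to 126224822, plus strand) had an acceptor 70 nt further in, and its annotated exon had depths of 41.9 and 13.2 in Bass at 24 h and 48 h, 29.7 and 16.6 in Harrington, and 30.3 and 27.6 in Baudin. MLOC_12000.2 (LG10, annotated exon 72569897 to 72570295, minus strand), an EFR3-like protein, a family that in yeast helps to hold a lipid kinase at the plasma membrane, had a 3 nt shorter exon at depths from 10.5 to 25.7. MLOC_72888.3 (LG02, annotated exon 73084722 to 73084838, minus strand) had a 31 nt shorter exon at depths from 7.40 to 22.4. All 3 exons were read at moderate depth in each of the 6 libraries.

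The other 3 of the 6 were A5S events. In MLOC_6549.1 (LG04, annotated exon 50882804 to 50882883, plus strand), 60S ribosomal protein L34, the donor lay 2 nt further in, and the annotated exon had depths of 52.0 and 71.1 in Bass, 54.1 and 95.2 in Harrington and 60.0 and 87.1 in Baudin. Depth was higher at 48 h in each of the 3 varieties. Its constitutive exon was listed with another event in Stirling at 24 h, at a depth of 152, above the other varieties at that time (88.3 to 131). MLOC_61694.1 had a 4 nt longer exon at depths from 36.2 to 66.2, and MLOC_17018.1, a peptidyl-prolyl cis-trans isomerase, an enzyme class that helps proteins to fold, a 10 nt shorter one at depths from 2.79 to 12.6. Apart from MLOC_6549.1, neither Stirling library listed any event in these genes, so the depth of their exons in Stirling is not known.

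Of the events listed in 5 of the other 6 libraries, MLOC_34519.1, with no description, had the deepest A3S exon, 10 nt longer in its alternative form, at depths from 359 to 556. MLOC_12906.1 (LG10, annotated exon 82091766 to 82091950, plus strand), an expansin, a protein that loosens cell walls during growth, had a 5 nt shorter form. Its annotated exon had depths of 233, 418 and 420.2 at 24 h in Bass, Harrington and Baudin, and of 124 and 158 at 48 h in Bass and Harrington, so it was deeper at 24 h in both varieties that listed it at both times. MLOC_59466.2, an ATP-dependent RNA helicase, had a 98 nt shorter form at depths from 102 to 220.0. MLOC_56037.3, a protein with a DUF124 domain, had a 3 nt shorter form at depths from 90.1 to 105, and the same exon was listed in Stirling with another event at 150.4 and 110.3, so the exon was read in Stirling at no lower depth. MLOC_65982.2, a JmjC domain protein, of a family that includes histone demethylases, had a 24 nt longer form at depths from 51.6 to 99.1. Stirling listed that exon with another event at 48 h, at 36.8.

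Among the A5S events listed in 5 libraries, MLOC_78862.2 had a 48 nt shorter form at depths from 50.5 to 107, and Stirling listed the exon with another event at 24 h at a depth of 62.4, within that range. MLOC_13829.2 had a 337 nt longer form at depths from 3.73 to 11.5. MLOC_36471.1, 50S ribosomal protein L14, had a 72 nt longer form at depths from 3.71 to 5.90, while its constitutive exon had depths from 732 to 1156 in the same libraries. The annotated exon of this gene was thus read more than 100 times less deeply than the exon it is joined to.

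Described genes also held events missing from Stirling. MLOC_51216.2, a KOW domain-containing transcription factor, of a family that in Arabidopsis takes part in RNA-directed DNA methylation, had a 3 nt shorter form at depths from 20.9 to 92.5. MLOC_61186.1, of the TPX2 family of spindle proteins, had a 9 nt shorter form at depths from 19.7 to 50.6. MLOC_66335.1, a cyclin dependent kinase inhibitor, had the longest distance of the set, 1425 nt, at depths from 40.6 to 98.3, and Stirling listed its annotated exon with another event at 69.2 and 27.3. MLOC_15296.1, glyceraldehyde-3-phosphate dehydrogenase, an enzyme of glycolysis, had a 40 nt shorter form at depths of 274 in Bass at 24 h and 81.9, 81.3 and 110 in Bass, Harrington and Baudin at 48 h. MLOC_64692.1, a transmembrane emp24 domain protein of early secretory vesicles, had a 545 nt longer form at depths from 295 to 393.

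Of the remaining named genes, MLOC_67307.2, a trypsin family protein, had a 27 nt longer form, MLOC_68945.2, the non-catalytic subunit of a tRNA methyltransferase, an 18 nt shorter form, and MLOC_59472.1, an ACT domain protein, a 24 nt shorter form. Their exons had depths from 22.7 to 66.5. Missing events also included the deepest exons of both sets, in MLOC_3822.1 (51 nt shorter, depths of 4878, 7725 and 6859 in Bass, Harrington and Baudin at 48 h) and MLOC_13742.1, aspartate aminotransferase, an enzyme that links amino acid and organic acid metabolism (9 nt shorter, 2529 in Bass at 48 h, 2803 in Harrington at 24 h and 2361 in Baudin at 48 h). These 2 were named after their values were seen. Both exons were also listed with another event in Stirling at 24 h, at 1624 and 3710.

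Of the 153 genes 54 (35.3%) had a description, against 904 of 4634 genes (19.5%) in all the lists. The study's tables of A3S and A5S transcripts hold those found in at least 3 varieties. The missing events are by rule listed in 3 varieties, which by itself favours described genes. How far this raised the share was not tested. By the words of the descriptions, 3 of the 54 genes were ribosomal proteins (MLOC_36471, MLOC_63593 and MLOC_6549), 8 kinases, phosphatases or their regulators and 3 transcription factors (MLOC_3107, MLOC_4879 and MLOC_51216). A further 1 was a ubiquitin ligase (MLOC_55679) and 1 an RNA-binding protein (MLOC_18525). The words for metabolic enzymes matched 6, but these include MLOC_37806, a histone-lysine methyltransferase, and MLOC_68945, a subunit of a tRNA methyltransferase. Translation factors, chaperones, LEA proteins and transporters held none. Kinases and phosphatases made up 14.8% of the 54, against 8.96% of the 904 described genes, and ribosomal proteins 5.56% against 3.32%. Matches to the words for metabolic enzymes made up 11.1% against 9.62%. These shares are descriptions of small counts and were not tested. No gene held events of both sets, and 2 genes held more than 1 missing event, MLOC_12432, a phosphatase of the RNA polymerase II tail, and MLOC_64351, a katanin p60-like protein, of a family that severs microtubules.

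The pair of sites of a member was found in no list of the other side, for either set, so no member differed from a listed event in its outer exon ends alone. For 32 of the 48 Stirling-only events the gene was listed with other events in at least 1 of the other 6 libraries, and for 11 the same annotated exon had another alternative site of the same type there. For 69 of the 155 missing events Stirling listed another event in the gene, and for 22 another alternative site of the same exon. For the other 86 missing events nothing in the Stirling lists shows how deeply the gene was read.

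Where another event showed the same annotated exon, its depth in Stirling and in the other varieties was similar. This held for 20 Stirling-only exons, with a median log2 difference of Stirling minus the other varieties of 0.04, 12 above 0 and 8 below, and 18 within 1. For 39 exons of missing events the median was -0.01, with 18 above 0 and 21 below, and 36 within 1. Over all 3998 exons with a depth in Stirling and another variety the median was -0.08, with 42.7% above 0 and 90.1% within 1. These medians include exons read at different times on the 2 sides. When only the same time was compared, a choice made after seeing the data, the medians were 0.02 over 20 exons and -0.06 over 37. An exon had a depth on the other side only where another event with it was listed there. Exons with too few reads can thus drop out, which by itself favours similar depths. Within this limit, the 20 and 39 exons that could be seen were read in Stirling about as deeply as elsewhere. For the other exons of both sets this is not known.

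**Figure D4:**
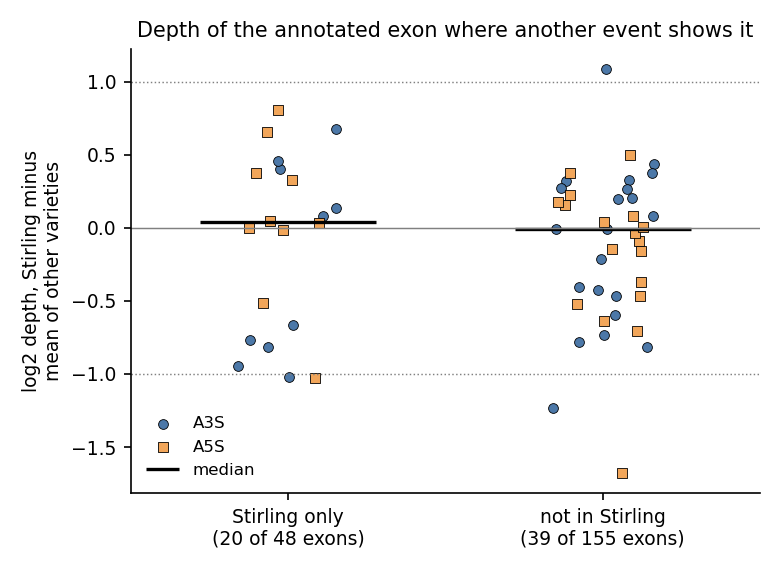
Difference in log2 depth of the annotated exon, Stirling minus the mean of the other varieties (y axis), for the 20 Stirling-only and 39 missing events whose exon another event shows on the other side. Circles are A3S, squares A5S, black lines the medians of 0.04 and -0.01, and dotted lines mark a difference of 1. The lowest point, at -1.68, is the exon of MLOC_3822.1.

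Single exons show how far this goes. The annotated exon of the Stirling-only event in MLOC_4508.2 was listed in all 8 libraries, at 48.4 and 52.6 in Stirling and from 42.9 to 59.8 in the other 6, a difference of -0.01. That of MLOC_77840.1 was also listed in all 8, at 1199 and 785 in Stirling and from 420.2 to 1085 elsewhere, a difference of 0.33. In both genes the Stirling depths overlapped those of the other libraries. The alternative donor site was listed in Stirling alone, but without junction reads a difference in its use is not shown. The exon of MLOC_3822.1 was instead listed in Stirling only at 24 h, at 1624, where Bass had 647, and its low value of -1.68 set that 24 h depth beside the much deeper 48 h libraries. At the same time the difference was 1.40.

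The stretch of bases that lies between the 2 sites had a depth, computed from both forms of the exon, with a median of 8.88% of the depth of the shared part in the 19 Stirling-only events with a longer alternative form. It was 14.0% in the 50 missing events with a longer form and 15.7% in all 2874 such events. For shorter forms, where the stretch is part of the annotated exon, it was 38.0% in 29 Stirling-only events, 42.6% in 105 missing events and 42.2% in all 5451. The quartiles of the 3 groups overlapped, from 7.93% to 17.9% for the Stirling-only longer forms and from 5.45% to 42.7% for all longer forms. In MLOC_5950.1 the 4 nt stretch had depths of 97.8 and 309 beside 1838 and 2961 for the shared part, and in MLOC_4508.2 the 108 nt stretch had 61.0 and 60.0 beside 36.2 and 39.9. The stretch depth of some events was below 0 in the computation, as for MLOC_64394.1 at -3.60 and -1.80, so it is a rough measure over a few bases.

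Stirling was next compared with the other varieties over features that all 8 libraries listed. These features were thus also chosen by listing, and no Stirling-only or missing event could be among the events tested. The results hold only for features listed in every library and cannot show how the events of either set differ. The mean of both times was taken per variety, and the single Stirling value was assumed to vary like the other 3. Of 177 constitutive exons, 0 (0%) passed an adjusted p of 0.05 in limma in either direction, 14 had an unadjusted p under 0.05, and the smallest adjusted p was 0.113. Of 173 events (136 A3S and 37 A5S), 0 (0%) passed for the log2 ratio of the stretch depth to the shared depth, 18 had an unadjusted p under 0.05, and the smallest adjusted p was 0.158. The median difference was -0.03 on the log2 scale for the exons and 0.05 for the ratios. No other tool was run on these values.

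The exon with the smallest p was in MLOC_74793.3 (LG02, 94296548 to 94296599, minus strand), described as an unknown protein. Its depth was 131 and 219 in Stirling at 24 h and 48 h, 10 and 178 in Bass, 2.52 and 271 in Harrington, and 9.67 and 183 in Baudin. Stirling stood above all 3 other varieties at 24 h and among them at 48 h. The log2 difference over both times was 2.09 ± 0.27 (SE, adjusted p = 0.113 in limma). In limma it was 4.26 at 24 h alone (adjusted p = 0.0399) and -0.08 at 48 h alone (adjusted p = 0.946), and 1.94 without Harrington (adjusted p = 0.00236). With all 8 libraries, time as a covariate and a random variety block in limma it was 2.09 with an adjusted p of 0.468, and over all alternatives the adjusted p ranged from 0.00236 to 0.946. The next exons were MLOC_34594.2, at 9.16 and 9.63 in Stirling against 13.6 to 22.6 elsewhere (log2 difference -0.96), and MLOC_11248.2, at 201 and 585 against 47.7 to 345 (1.09), with adjusted p of 0.430 and 0.503 in limma. The Stirling depths of the first lay below those of the other 6 libraries, and those of the second overlapped them.

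For the stretch between the sites the smallest p belonged to MLOC_16609.2, MLOC_66417.2 and MLOC_44694.2, with differences of 2.46, -1.05 and 0.74 and adjusted p of 0.158, 0.158 and 0.354 in limma. In MLOC_16609.2, an A3S event, the log2 ratio was -3.23 and -2.75 in Stirling and from -7.29 to -3.27 in the other libraries. In MLOC_66417.2, an A3S event at acceptors 3 nt apart, it was -1.77 and -3.71 in Stirling and from -1.93 to -1.37 elsewhere, so only the 48 h library stood apart. In MLOC_44694.2, an A5S event, it was -3.95 and -3.43 in Stirling and from -6.13 to -2.65 elsewhere, so the groups overlapped.

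The spread of the change from 24 h to 48 h was lower in Stirling than in each other variety. This comparison, its exons and its threshold were chosen after seeing the data. Over 374 exons with a depth in all 8 libraries, centred per library, the SD of the log2 change was 0.67 in Stirling, 1.04 in Bass, 0.94 in Harrington and 0.84 in Baudin. The mean of the other 3 was 0.94 ± 0.10 (SD, n = 3), and the difference of -0.27 had an exact permutation p of 0.25 (two-sided), the smallest that 4 varieties allow. Across the 374 exons, which are not independent, the correlation of log2 depth between 24 h and 48 h was 0.933 in Stirling and 0.827 to 0.886 in the others. The 24 h library of Stirling had a mean correlation of 0.920 with the 48 h libraries of the other varieties and of 0.913 with their 24 h libraries, whereas for the other 3 varieties these were 0.832 to 0.883 and 0.920 to 0.928.

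In all of Bass, Harrington and Baudin, 8 of the 374 exons, in 5 genes, were deeper at 48 h by more than 1.5 on the log2 scale. In Stirling the change of each was below that of all 3, with a median of 0.92 against 2.91. In the other direction 1 exon passed, in MLOC_61270.3, with changes of -2.02 in Bass, -2.03 in Harrington and -1.68 in Baudin, and -0.85 in Stirling. In MLOC_59149.1 (LG01, exon 88596186 to 88596593, plus strand), a lectin, of a class of carbohydrate-binding proteins, the depth was 769 and 1287 in Stirling, 323 and 1166 in Bass, 654 and 2826 in Harrington, and 421 and 2081 in Baudin. In MLOC_77777.3 (LG02, exon 146330778 to 146331302, plus strand), a LEA protein, of a class that protects seeds during drying, it was 1967 and 3872 in Stirling, 454 and 4541 in Bass, 584 and 5415 in Harrington, and 309.9 and 2098 in Baudin. At 24 h Stirling was the deepest library for both exons, and at 48 h it was within the range of the others.

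In MLOC_64351.2 (LG01, exon 132534252 to 132534373, minus strand), the katanin p60-like protein, the depth was 123 and 147 in Stirling, 27.6 and 133 in Bass, 28.5 and 200.1 in Harrington, and 24.0 and 173 in Baudin. This gene also held 2 events missing from Stirling, and the annotated exon of its A5S event was read in Stirling with another event at 105 and 147, so the gene was read at both times there. In MLOC_51316.3, an unknown protein, it was 152 and 167 in Stirling, 63.1 and 204 in Bass, 55.7 and 246 in Harrington and 59.5 and 201 in Baudin. The first exon of MLOC_77777.3 had 458 and 654 in Stirling and only 3.48 and 14.0 in Baudin. In each of the 8 exons Stirling had the highest depth of the 4 varieties at 24 h.

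**Figure D5:**
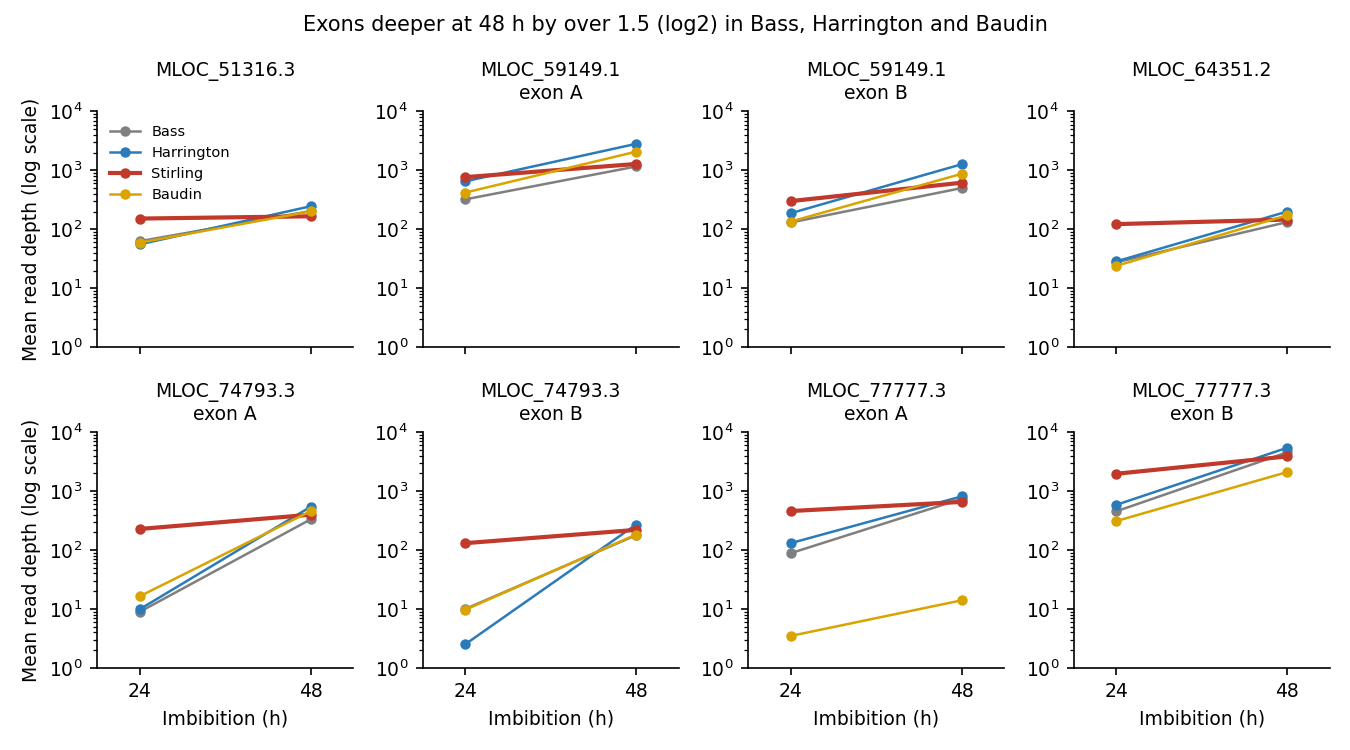
Mean read depth as deposited (y axis, log scale) at 24 h and 48 h of imbibition (x axis) for the 8 exons of 5 genes, with 1 line per variety and 1 library per point. Stirling (red) is the highest point at 24 h in each panel, and at 48 h it is near the other varieties, apart from the low Baudin values in exon A of MLOC_77777.3.

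The exons were chosen by their change in the other varieties, which by itself favours a smaller value in Stirling. The counts and medians of these 8 exons are therefore a description, and no test was made. Without the 5 genes the SD was 0.66 in Stirling and 0.92, 0.73 and 0.69 in Bass, Harrington and Baudin, so Baudin and Harrington came close to Stirling. In the limma test of the change itself, Stirling against the other varieties, 0 of 177 constitutive exons and 0 of 173 stretch ratios passed an adjusted p of 0.05, with 12 and 6 at an unadjusted p under 0.05 and smallest adjusted p of 0.234 and 0.457.

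Over whole lists the values of Stirling lay near those of the other varieties. A3S made up 65.6% of its events, as the mean of both times, against 67.5% ± 1.42 (SD, n = 3 varieties, exact permutation p = 0.5, two-sided). The share of A5S events with a longer alternative exon was 48.6% in Stirling and 45.0% ± 0.563 in the others, and the share of A5S distances that are multiples of 3 was 36.8% against 35.4% ± 0.571, each above all 3 other varieties (exact permutation p = 0.25 for both, n = 3). The median A3S distance was 12 nt against 12.3 nt ± 0.289, and 45.5% of A3S distances were multiples of 3 against 44.3% ± 1.64 (exact permutation p = 1 and 0.75). The share of A3S distances of exactly 3 nt was 15.0% against 14.1% ± 0.760 (exact permutation p = 0.75). These 6 tests cannot give a p under 0.25, so no adjusted value could pass.

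Just outside the rule, 57 events were listed in both Stirling libraries and exactly 1 of the other 6, more than the 48 in none. A further 703 events were listed in Stirling at 24 h alone and 540 at 48 h alone, and 757 events were listed in exactly 2 other varieties and in no Stirling library. Events seen in a single library were thus more common than those that Stirling listed at both times. Of the 2197 events in the 24 h list of Stirling, 48.6% were also listed in Bass, 43.5% in Harrington and 47.0% in Baudin, and of the 678 events in both its lists 80.1%, 77.6% and 79.6%.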

How the data were processed

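Poly(A) RNA of germinating embryos was sequenced as 1 library per variety and time. Per the methods, the authors used SOAPaligner/Soap2 and the IBSC assembly of Morex for alignment and SOAPsplice for junctions. They deposited, per library, a list of A3S and a list of A5S events with the start, end, depth and covered share of 3 exons. These deposited values (unit other, not counts) are mean read depths without scaling to library size. The lists hold neither junction reads nor total reads, so the precision of a depth is not known. IR was not analysed here, and the supplementary tables served only for gene descriptions.

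Events were matched by gene model and the coordinates of all 3 exons (Python 3.11.15, pandas 2.3.3). Depths were compared as log2(depth + 0.5), with libraries centred on their median, in limma 3.58.1 (R 4.3.3) on variety means of both times, with Benjamini-Hochberg adjustment over all features and a threshold of 0.05. The depth between the sites was computed from the summed depths of both exon forms, and 83 of 1384 values below 0 were set to 0. The sum was depth times covered share times length for the annotated form, but depth times length for the alternative form. Where an exon was only partly covered, this choice changes the value. Whole-list values were compared with exact permutation tests over the 4 varieties. The scripts were tested on simulated data. With a change of 1 on the log2 scale put into 40 features, limma recovered 47.5% for the exons and 40% for the stretch ratios. With a change of 2 it recovered 95% and 87.5%. The limma results of 0 can thus miss many 2-fold differences.

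The members, gene lists and tests were chosen with earlier results of these data known. Genes named were the 8 A3S and 5 A5S Stirling-only events with the deepest annotated exon, as many missing events listed in the most libraries (ties by depth), up to 10 more described genes of each set, and the 3 features with the smallest p of each fit, since none passed. Other genes, the comparison of changes over time, its 374 exons and its threshold of 1.5 were chosen after their values were seen. A mark ([noref]) on 81 list entries is not explained in the sources used here, and no member carries it. Alternatives were a match by site pair or by gene and type, a depth minimum of 10, looser or stricter listing, each other variety left out, single times, no centring, another added constant, at least 20 nt between the sites, and all 8 libraries with time and a random variety block.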

Additional observations from a re-analysis of the deposited data

How the results depend on the processing

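The number of Stirling-only events, 48, was 31 when any event of the same type in a gene counted as the same, 105 when 1 of the other 6 libraries could also list the event, and 68 to 75 with 1 other variety left out (75 without Bass). The number missing from Stirling, 155, was 88 when the 3 other varieties had to list the event at the same time, and 371 to 472 with 1 variety left out (472 without Harrington). Both counts depend on how many lists must be empty or filled, by construction. Matching by the pair of sites left both at 48 and 155, and a depth minimum of 10 gave 36 and 109. Of constitutive exons 0 passed in limma, but 1 passed at 24 h alone, and 0 to 1 with 1 variety left out (1 without Harrington). That exon, of MLOC_74793.3, had a difference of -0.082 at 48 h alone. In MLOC_66417.2 the difference of the stretch ratio was 0.0187 at 24 h alone, so its value rests on 48 h. The median exon depth difference of missing events ranged from -0.1474 (without Baudin) to -0.003377 (without Bass), and the cause was not tested. The difference in the SD of the change over time was -0.1146 without the 5 named genes, and the cause was not tested beyond that. Another 100 values under an alternative counted as unchanged. They kept their side of the threshold, stayed within 1.5 times of the count or moved by less than the spread between varieties. For whole-list values the difference only had to keep its sign. The difference in median A3S distance, -0.33 nt, was -1.17 nt with a depth minimum of 10 and still counted. The median exon depth difference of Stirling-only events, 0.04, was -0.01 without Harrington and also counted. With 8 libraries, time as a covariate and a random variety block, 0 exons and 0 ratios passed in limma (smallest adjusted p 0.134 and 0.248). That block pairs the 2 libraries of a variety, and the labels give no replicate numbers.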
